A study of Homo sapiens with 6 samples.

Results

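The human genome holds many pseudogene copies of a few very active genes, and 581 of the 58051 genes measured here are copies of elongation factor, glycolytic, chaperone, ferritin, cyclophilin and nucleic acid binding genes. They were chosen by name alone: a parent symbol from a list of 28, then P and a number. Copies were found for 25 of the 28 parents, and none for HSP90AA1, HSP90AB1 and the TUBA1 stem. The samples were MDA-MB-231 cells, an established human breast cancer line with mesenchymal features, of WT genotype in both groups. Cells were stained with FITC-conjugated recombinant human FABP4, a fatty acid carrier of adipocytes, and sorted by flow cytometry. The FABP4 binding group had 3 libraries and the FABP4 non-binding group had 3. Total RNA was sequenced after ribosomal RNA depletion and random priming. The values are TPM, a relative abundance that divides each gene's reads by transcript length and scales every library to the same total. TPM keep no read depth, so the depth is unknown. The labels do not say whether replicates were grown or sorted apart, so p-values measure only the scatter of these 6 libraries, which may be technical. Of the copies, 214 were listed at 0 in all 6 libraries, 236 reached 1 TPM in at least 3 libraries and were tested, and 345 were not tested.

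A processed pseudogene arises when a messenger RNA is copied back into DNA and inserted elsewhere in the genome. It lacks the introns and usually the promoter of its parent, and genes that are strongly transcribed in the germ line tend to have the most copies. GENCODE release 29, used here for annotation, types 541 of the 581 copies as processed and 23 as transcribed processed pseudogenes, 12 as unprocessed and 4 as transcribed unprocessed pseudogenes, and HNRNPA1P48 as protein-coding. Of the 236 tested copies, 201 have a single annotated exon. Short reads from such a copy can match its parent and the other copies as well, and how the submitters assigned those reads is not given in the sources used here. The level of a copy is therefore the level that the submitters' counting gave it, and its division from the parent is uncertain throughout.

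The sequences of 3 families show how near some copies are to their parents. Each line below gives 90 bases of the coding stretch, 5′ to 3′ on the strand of the gene (GENCODE 29, GRCh38), with bases that differ from the parent in capitals. In the EEF1A1 family, the window is coding bases 29 to 118. The parent lies at chr6:73519909-73519998 on the minus strand. EEF1A1P5 lies at chr9:133019514-133019603 (plus), EEF1A1P6 at chr7:22511882-22511971 (minus), EEF1A1P9 at chr4:105484720-105484809 (plus) and EEF1A1P16 at chr12:16990698-16990787 (plus).
EEF1A1: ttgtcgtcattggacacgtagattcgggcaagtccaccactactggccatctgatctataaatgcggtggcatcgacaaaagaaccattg
EEF1A1P5: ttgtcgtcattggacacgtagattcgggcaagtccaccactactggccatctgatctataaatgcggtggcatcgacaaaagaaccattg
EEF1A1P6: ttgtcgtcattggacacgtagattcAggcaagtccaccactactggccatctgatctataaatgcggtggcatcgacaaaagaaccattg
EEF1A1P9: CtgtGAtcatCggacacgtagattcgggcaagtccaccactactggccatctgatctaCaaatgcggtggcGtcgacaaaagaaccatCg
EEF1A1P16: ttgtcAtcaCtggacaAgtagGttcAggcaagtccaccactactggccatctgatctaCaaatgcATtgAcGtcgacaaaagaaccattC
EEF1A1P5 does not differ from EEF1A1 in this window and differs at 4 of 1386 aligned coding bases, EEF1A1P6 at 7 of 1384, EEF1A1P9 at 38 of 1380 and EEF1A1P16 at 100 of 1375.

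In the PPIA family, coding bases 384 to 473 are shown for the parent at chr7:44801308-44801397 (plus), for PPIAP22 at chr21:18858162-18858251 (plus), which did not follow the other abundant copies, and for PPIAP19 at chr10:114690168-114690257 (minus) and PPIAP40 at chr11:3892415-3892504 (minus), which were listed above the parent.
PPIA: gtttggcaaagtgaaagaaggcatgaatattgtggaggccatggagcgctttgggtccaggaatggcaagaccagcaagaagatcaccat
PPIAP22: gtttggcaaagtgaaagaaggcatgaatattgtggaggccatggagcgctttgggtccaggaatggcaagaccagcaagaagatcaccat
PPIAP19: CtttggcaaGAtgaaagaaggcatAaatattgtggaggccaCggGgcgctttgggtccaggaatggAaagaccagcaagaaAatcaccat
PPIAP40: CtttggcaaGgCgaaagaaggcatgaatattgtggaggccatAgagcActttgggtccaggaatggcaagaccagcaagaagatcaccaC
PPIAP22 differs from PPIA at 2 of 495 coding bases, PPIAP19 at 33 of 489 and PPIAP40 at 27 of 490. For HMGB1, whose parent and copies both changed, coding bases 151 to 240 are shown for the parent at chr13:30463263-30463352 (minus), HMGB1P6 at chr15:71165178-71165267 (minus) and HMGB1P5 at chr3:22381969-22382058 (plus).
HMGB1: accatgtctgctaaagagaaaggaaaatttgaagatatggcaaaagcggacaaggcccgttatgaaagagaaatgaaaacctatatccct
HMGB1P6: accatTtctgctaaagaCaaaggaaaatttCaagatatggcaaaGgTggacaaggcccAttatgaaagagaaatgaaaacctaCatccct
HMGB1P5: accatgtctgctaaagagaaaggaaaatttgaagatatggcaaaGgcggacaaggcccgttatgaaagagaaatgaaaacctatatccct
HMGB1P6 differs at 9 of 642 aligned coding bases, 7 of them in this window, and HMGB1P5 at 3 of 513.

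The copies were lower in FABP4 binding cells, and the summed TPM of their parents overlapped between the groups. The 581 copies took 3.90, 5.90 and 5.71% of all TPM in the 3 binding libraries, against 8.70, 10.03 and 8.999% in the 3 non-binding libraries. The groups did not overlap, and the mean was 5.17 ± 1.11% in binding against 9.24 ± 0.70% in non-binding cells (SD, n = 3 each), a fall of 44.1%. The 28 parents together took 3.67, 3.47 and 3.47% in binding libraries, against 3.50, 3.56 and 3.45% in non-binding libraries, which overlap. Per gene, log2(TPM + 1) was tested with limma over all 15574 genes that reached 1 TPM in at least 3 libraries, with Benjamini-Hochberg adjustment at 0.05, and the fold changes below are binding over non-binding on that scale, where the changes of low genes come out too small. Of the tested copies 215 had a change below 0, against 31.9% of all tested genes. No copy rose, 100 of the 236 tested copies (42.4%) fell and 136 did not pass. Over all tested genes, 7.12% fell and 19.6% rose. The median change was -0.75 for the tested copies and 0.36 for all tested genes, and 50 of the 100 copies that fell did so by at least 1 on the log2 scale. Beside the adjusted test, 2 copies had a positive change with an unadjusted p below 0.05.

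The count depended on which libraries and settings were used. With non-binding library 3 left out, 0 copies passed in limma, and 125 had an unadjusted p below 0.05. None of the 27 tested parents passed in that setting either, nor any gene of the 4 lists of related genes described below, and over all tested genes 6 fell and 58 rose. All 100 copies then kept their sign and 93 of them had an adjusted p below 0.1 (limma). These copies had been picked for their fall with the same libraries, so this does not support the calls. Counts over all tested genes at an unadjusted p below 0.05 or an adjusted p below 0.1 were not made. With non-binding library 2 left out, 17 fell, and with non-binding library 1 left out, 65. Without the filter on low values, 51 of 367 copies fell. Since the median gene rose by 0.36, all libraries were also set to a common median: 116 copies and 1890 of all tested genes then fell, and 962 of all tested genes rose. Under quantile normalization 94 copies and 1246 of all tested genes fell and 1197 rose; EEF1A1P17, EEF1A1P9, PPIAP19 and CFL1P4 then kept their sign but did not pass, and EEF1A1P5, first in every library, has a change of 0 by construction. Relative to the median of all tested genes the median copy stood at -1.11, a difference that a common median leaves as it is by construction. A copy that reaches 1 TPM only where it is high passes the filter because of that group, so the counts describe the tested copies and do not support a call. Among the 127 copies with a mean of at least 10 TPM over all 6 libraries, the lowest library was binding library 1 for 91 copies, and the highest was non-binding library 2 for 77.

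**Figure D1:**
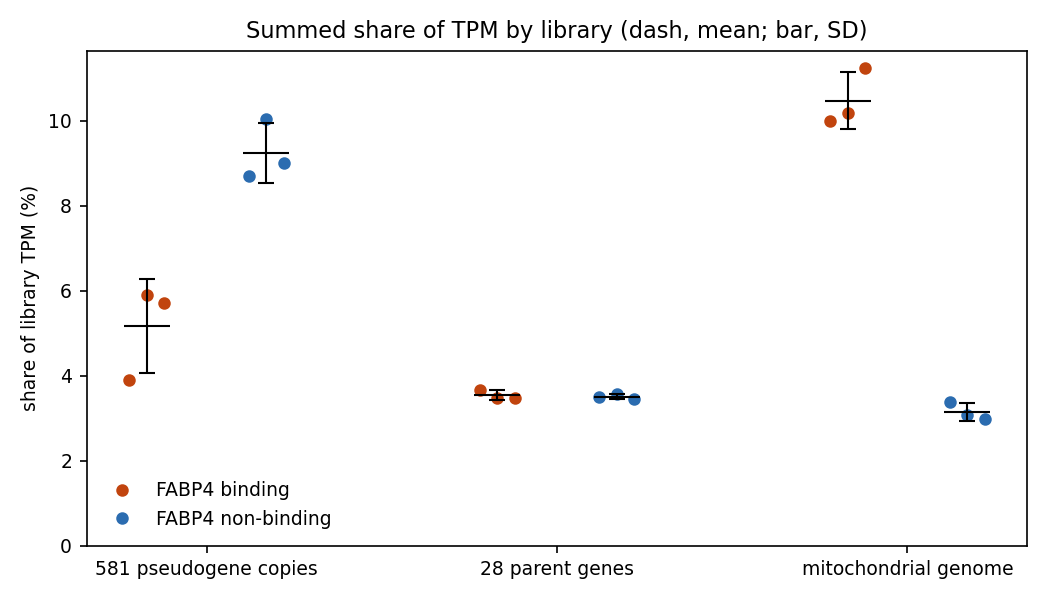
Share of all TPM (%) held by the 581 copies, the 28 parents and the transcripts of the mitochondrial genome, each point a library, FABP4 binding left and non-binding right, with mean and SD. The copies sit between 3.90 and 5.90% in binding libraries and between 8.70 and 10.03% in non-binding ones, while the parents overlap.

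Elongation factor eEF1A brings aminoacyl-tRNA to the ribosome, and its copies held the largest part of the signal. EEF1A1P5 (chr9:133019486-133020874, plus strand, 99.7% identical to the parent transcript) was the gene with the highest TPM in all 6 libraries and held 39.1% of the TPM of all copies. It had 14436, 23478 and 22669 TPM in binding libraries, against 34512, 39470 and 34679 TPM in non-binding libraries. Binding library 1 was the lowest and the groups did not overlap. EEF1A1P5 fell by 0.87 ± 0.20 (log2, SE; limma adjusted p = 0.0239). The parent EEF1A1 had 4827, 4921 and 4871 TPM in binding libraries, against 5529, 5688 and 5309 TPM in non-binding libraries, a change of -0.18 that did not pass (limma adjusted p = 0.243). Since the copy and its parent share most of their bases, the order of their levels depends on how reads were assigned.

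The family has 39 copies, of which 26 were tested and 18 fell, with a median change of -0.85. EEF1A1P16 (chr12:16990670-16992083), only 91.9% identical to the parent, had 2937, 4473 and 4267 TPM in binding libraries, against 6530, 7938 and 6536 TPM in non-binding libraries, and fell by 0.87 ± 0.18 (adjusted p = 0.0203, limma). EEF1A1P5, with 4 coding differences from the parent, and EEF1A1P16, with 100, thus fell by a like amount. What likeness to the parent does to the change cannot be read from these copies and was not tested. EEF1A1P17 averaged 1204 ± 282 TPM in binding cells, against 1974 ± 320 TPM in non-binding cells (SD, n = 3 each), and EEF1A1P9 averaged 964 ± 163 TPM in binding cells, against 1633 ± 320 TPM in non-binding cells; both fell, by 0.73 and by 0.76. EEF1A1P6 had 440, 718 and 664 TPM in binding libraries, against 1195, 1240 and 1253 TPM in non-binding libraries, and fell by 1.05 ± 0.19 (limma adjusted p = 0.0147). With every EEF1A1 copy left out, the remaining 542 copies held 2.25 ± 0.41% of TPM in binding cells, against 4.01 ± 0.25% in non-binding cells, so the lower share was not carried by this family alone.

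The exchange factor subunits have few copies. EEF1B2 encodes the nucleotide exchange subunit that reloads eEF1A with GTP. It averaged 594 ± 139 TPM in binding cells, against 439 ± 32.7 TPM in non-binding cells, a change of 0.41 that did not pass (limma adjusted p = 0.101), while 3 of its 6 tested copies fell. EEF1B2P3, the highest of them, had 73.2, 83.5 and 100.1 TPM in binding libraries, against 174, 176 and 160.1 TPM in non-binding libraries, and fell by 0.99 (adjusted p = 0.0121, limma). EEF1G, the scaffold subunit, was listed at 0 to 1.54 TPM and was not tested, and no share of its copies in the parent was computed. Its listed level near 0 may come from the submitters' counting, which was not tested. Of its 2 tested copies 1 fell, and EEF1GP5, the higher, averaged 2.88 ± 1.45 TPM in binding cells, against 5.19 ± 1.23 TPM in non-binding cells (limma adjusted p = 0.113).

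**Figure D2:**
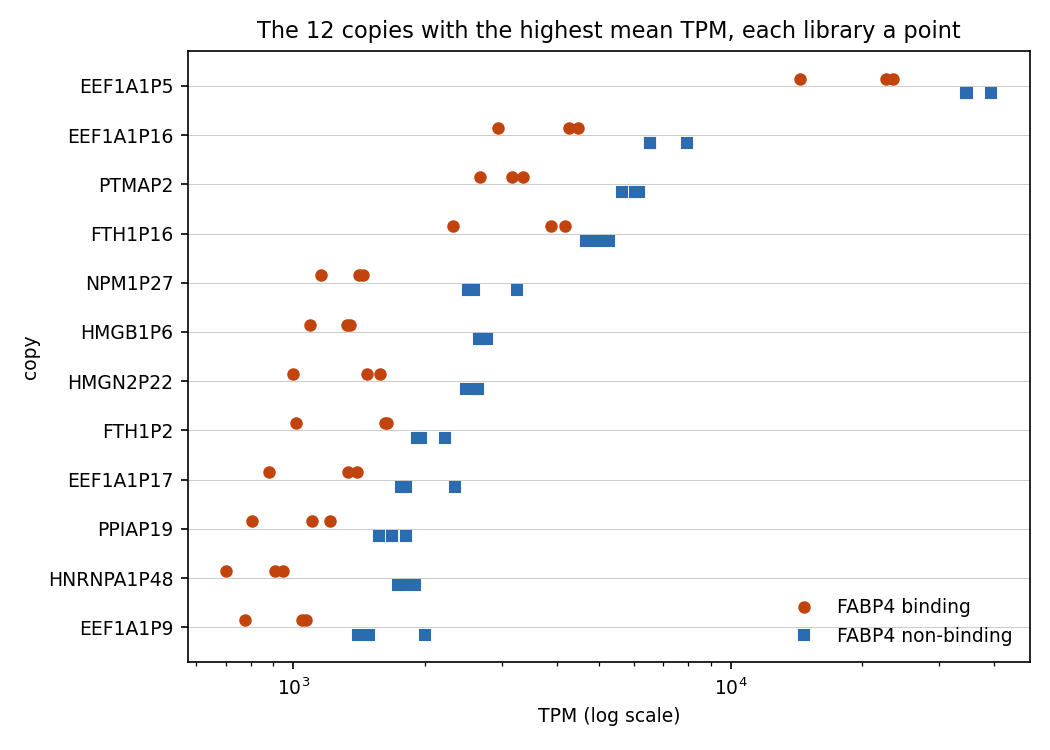
TPM on a log scale of the 12 copies with the highest mean, each point a library, FABP4 binding above and non-binding below within each row. In all 12 rows the binding points lie left of the non-binding points, and binding library 1 is the lowest point of each row.

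The 12 most abundant copies held 77.3% of the TPM of all copies, and 10 of them fell. The other two were ferritin copies. PTMAP2 (chr5:118973796-118974122), a copy of the gene for prothymosin alpha, an acidic nuclear protein that binds histones, had 2677, 3360 and 3156 TPM in binding libraries, against 5650, 6044 and 6182 TPM in non-binding libraries. It fell by 0.96 ± 0.13 (limma adjusted p = 0.00996). Its parent PTMA averaged 816 ± 12.2 TPM in binding cells, against 1032 ± 56.7 TPM in non-binding cells, a change of -0.34 just short of the threshold (limma adjusted p = 0.0517), which passed as lower with a common median (-0.66, limma adjusted p = 0.018).

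Of 7 glycolytic parents 4 rose, 1 fell and the others did not pass, against 19.6% higher and 7.12% lower among all tested genes. No tested copy of these parents rose, and ENO1 and LDHB had no tested copy. ENO1 (enolase) averaged 3162 ± 397 TPM in binding cells, against 1736 ± 60.7 TPM in non-binding cells, a rise of 0.86 (limma adjusted p = 0.0123). LDHA and LDHB, the subunits of lactate dehydrogenase, rose by 0.81 and 0.77, and PGAM1, phosphoglycerate mutase, by 0.65. With a common median, ENO1 and LDHA still passed, and LDHB (0.45) and PGAM1 (0.33) did not. PGK1, phosphoglycerate kinase, went the other way, with 1727, 2410 and 2371 TPM in binding libraries, against 3141, 4110 and 3093 TPM in non-binding libraries, and fell by 0.67 (limma adjusted p = 0.0322). GAPDH and PKM did not pass, with changes of 0.17, whose sign turned with a common median, and -0.23.

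Of 62 GAPDH copies, 24 were tested and 6 fell. GAPDHP65, the most abundant, averaged 422 ± 89.0 TPM in binding cells, against 605 ± 122 TPM in non-binding cells and did not pass (limma adjusted p = 0.0838). LDHAP5 had 9.57, 11.5 and 13.9 TPM in binding libraries, against 20.6, 30.6 and 36.9 TPM in non-binding libraries, and fell by 1.24 ± 0.24 (limma adjusted p = 0.0172), the opposite direction from LDHA. PGK1P2, the single PGK1 copy, fell by 0.98 with its parent, at 16.2 ± 4.85 TPM in binding cells, against 32.5 ± 5.36 TPM in non-binding cells. Of the PGAM1 copies 1 of 6 fell, of the LDHA copies 2 of 5 and of the PKM copies 1 of 4. PGAM1P6 and PKMP1, the highest of their families, did not pass, with changes of -0.39 and -0.48. The 4 ENO1 copies and the 3 LDHB copies were at or near 0 and none was tested.

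Among other glycolytic enzymes (hexokinases, phosphofructokinases, aldolases and isoforms of the parents), 7 of 11 tested rose and none fell, against 19.6% higher among all tested genes. With a common median 5 of 11 rose, against 6.18% of all tested genes. PFKP, a phosphofructokinase, averaged 328 ± 73.7 TPM in binding cells, against 166 ± 8.98 TPM in non-binding cells, and ALDOC, an aldolase, averaged 107 ± 5.89 TPM in binding cells, against 55.5 ± 3.46 TPM in non-binding cells. HK1, PFKL, PFKM, TPI1 and ENO2 also rose. Of 10 other genes in the elongation factor list, 3 rose and none fell (30.0% higher, against 19.6% of all tested genes). The list also holds methyltransferases of these factors, the kinase EEF2K and a tRNA synthetase. With a common median EEF1A2 alone rose. EEF1A2, the tissue-restricted sister of EEF1A1, averaged 423 ± 68.7 TPM in binding cells, against 216 ± 11.4 TPM in non-binding cells, and the other two were EEF1D and EEF2K. The median change was 0.74 in the glycolytic list and 0.61 in the elongation factor list, against 0.36 over all tested genes.

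Cyclophilin A, the product of PPIA, is a peptidyl-prolyl isomerase with many copies in the genome. PPIA had 507, 361 and 338 TPM in binding libraries, against 262, 215 and 239 TPM in non-binding libraries, and rose by 0.73 (limma adjusted p = 0.0255), or by 0.41 without passing once all libraries had a common median (limma adjusted p = 0.0754). Of its 27 tested copies 13 fell and 14 did not pass, and 23 had a change below 0. PPIAP19 (chr10:114690143-114690634) had 806, 1211 and 1105 TPM in binding libraries, against 1574, 1814 and 1683 TPM in non-binding libraries, and fell by 0.72 (adjusted p = 0.0241, limma). PPIAP40 averaged 972 ± 250 TPM in binding cells, against 1620 ± 34.3 TPM in non-binding cells, and PPIAP9 averaged 747 ± 122 TPM in binding cells, against 1272 ± 76.0 TPM in non-binding cells. These 3 copies, 92.6 to 94.7% identical to the parent, were each listed above PPIA in every library.

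PPIAP22 stood apart among the abundant copies, and it was chosen after its values were seen. Among the 30 copies of all families with a mean of 100 to 1000 TPM, it was the 1 with a positive change. It lies on chromosome 21, is 99.6% identical to PPIA, and 78.2% of its 50-base windows occur in a PPIA transcript. PPIAP22 had 283, 225 and 193 TPM in binding libraries, against 215, 213 and 222 TPM in non-binding libraries. The groups overlap, and the change of 0.09 did not pass (limma adjusted p = 0.669).

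Ferritin stores iron in a shell of heavy (FTH1) and light (FTL) chains. FTH1 averaged 1185 ± 61.6 TPM in binding cells, against 779 ± 68.0 TPM in non-binding cells and rose by 0.61 (limma adjusted p = 0.0174), while FTL changed by 0.10, with a sign that turned with a common median, and did not pass. FTH1 did not pass with a common median either (0.29, limma adjusted p = 0.132). None of the 12 tested FTH1 copies and none of the 7 tested FTL copies passed. FTH1P16 (chr11:77734475-77735026, inside RSF1 on the same strand) had 2316, 4173 and 3888 TPM in binding libraries, against 4669, 5280 and 4974 TPM in non-binding libraries. FTH1P2 had 1015, 1640 and 1619 TPM in binding libraries, against 1914, 2225 and 1961 TPM in non-binding libraries. In both the groups did not overlap, with binding library 1 far below the other two, and the changes of -0.57 and -0.54 had limma adjusted p = 0.0825 and 0.0698. FTLP5 averaged 25.1 ± 11.4 TPM in binding cells, against 46.5 ± 1.30 TPM in non-binding cells (limma adjusted p = 0.0534).

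Chaperonins and heat shock proteins fold other proteins. HSPE1, the mitochondrial co-chaperonin, was the chaperone parent that passed on the TPM scale: it averaged 253 ± 11.8 TPM in binding cells, against 347 ± 16.1 TPM in non-binding cells and fell by 0.45 (limma adjusted p = 0.0273). HSPD1, the mitochondrial chaperonin, changed by 0.11 (limma adjusted p = 0.592), a sign that turned with a common median, and HSPA8, the constitutive cytosolic HSP70, by -0.51 (limma adjusted p = 0.0992). HSP90AA1, HSP90AB1 and CCT6A, a subunit of the TRiC chaperonin, did not pass; with a common median HSP90AA1 (-0.58) and HSP90AB1 (-0.47) passed as lower. Among the copies, 6 of 8 tested from HSPD1, 2 of 7 from HSPA8, 2 of 5 from HSPE1 and none of 3 from CCT6 fell.

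HSPD1P7, 88.3% identical to HSPD1, had 119, 136 and 137 TPM in binding libraries, against 208, 328 and 253 TPM in non-binding libraries. It fell by 0.99 (limma adjusted p = 0.0151). HSPE1P3 averaged 52.8 ± 15.2 TPM in binding cells, against 123 ± 32.2 TPM in non-binding cells and fell by 1.22. HSPA8P5 fell by 0.74, and CCT6P1 changed by -0.29 without passing (limma adjusted p = 0.501). In the list of 15 other chaperones, TRAP1 and CCT5 rose and TCP1, another TRiC subunit, fell. That is 13.3% higher and 6.67% lower, against 19.6% and 7.12% of all tested genes.

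Copies of nucleic acid and histone binding genes fell in large numbers. NPM1, the nucleolar histone chaperone, and HNRNPA1, a splicing regulator, did not pass themselves, with changes of 0.16 and 0.11 whose signs turned with a common median. Of their copies 14 of 26 and 16 of 29 fell. NPM1P27 (chr5:93682838-93683667, inside FAM172A on the same strand) had 1155, 1443 and 1413 TPM in binding libraries, against 2515, 3252 and 2585 TPM in non-binding libraries, and fell by 1.05 ± 0.15 (limma adjusted p = 0.0115). HNRNPA1P48 (chr16:51553436-51647132), 99.3% identical to its parent over the aligned part, had 703, 949 and 906 TPM in binding libraries, against 1734, 1902 and 1808 TPM in non-binding libraries, and fell by 1.10 ± 0.14 (adjusted p = 0.00959, limma). In both copies, every binding library lay well below every non-binding library.

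High mobility group proteins bend or loosen chromatin, and HMGB1 was the nucleic acid binding parent that fell. It had 343, 376 and 378 TPM in binding libraries, against 636, 589 and 586 TPM in non-binding libraries, a fall of 0.72 ± 0.11 (limma adjusted p = 0.0125). HMGB1P6 (chr15:71164770-71165415), with 1092, 1350 and 1328 TPM in binding libraries, against 2686, 2658 and 2771 TPM in non-binding libraries, fell by 1.11 ± 0.13 and had the smallest adjusted p of all copies (0.00675, limma). HMGB1P5 averaged 286 ± 47.0 TPM in binding cells, against 599 ± 11.4 TPM in non-binding cells and fell by 1.08. These were the 2 of 8 tested HMGB1 copies that fell.

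HMGN2, a nucleosome binding protein, changed by -0.11 without passing, or by 0.000763 without mitochondrial transcripts, but passed as lower with a common median (-0.43, limma adjusted p = 0.0385), and 6 of its 12 tested copies fell. HMGN2P22 (chr2:100591150-100591324) had 998, 1576 and 1476 TPM in binding libraries, against 2484, 2642 and 2633 TPM in non-binding libraries, and fell by 0.96 (limma adjusted p = 0.0157). HMGN2P47 had the largest fall of all tested copies, 2.50 ± 0.54, but at a low level: 0, 2.19 and 4.23 TPM in binding libraries, against 11.8, 12.7 and 16.2 TPM in non-binding libraries. With 0 in binding library 1, it reached 1 TPM in 3 libraries only with the non-binding group. HMGN2P7 and CFL1P7 were listed at 0 in all binding libraries and at 3.17 to 5.85 and 1.78 to 3.63 TPM in non-binding libraries, so no fold is given for them. HMGN2P7 and CFL1P7 passed the filter through the non-binding group alone, so their falls do not support a call. Among 9 other nucleic acid and histone binding genes, HMGN1, HMGN3 and PTMS rose, and HNRNPA2B1, HNRNPA3 and BTF3 fell. Each direction held 33.3% of this list, against 19.6% higher and 7.12% lower among all tested genes.

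The other large falls on the log2 scale also belonged to copies with low levels. HNRNPA1P41 averaged 13.7 ± 7.39 TPM in binding cells, against 45.6 ± 8.69 TPM in non-binding cells and fell by 1.78 ± 0.37 (limma adjusted p = 0.0191). NPM1P29, PPIAP85, PKMP4, HMGN2P6, HNRNPA1P22 and HNRNPA1P50 fell by 1.38 to 1.76 with means of at most 11.8 TPM in binding cells. NPM1P29 averaged 0.239 TPM in binding cells, against 3.14 TPM in non-binding cells, and reached 1 TPM in no binding library. PPIAP85 averaged 0.344 TPM in binding cells, against 2.92 TPM in non-binding cells, and was listed at 0 in binding libraries 2 and 3. NPM1P29 and PPIAP85 passed the filter because of the non-binding group, so their falls do not support a call. PKMP4, at 0 in binding library 1, also needed that group to reach 1 TPM in 3 libraries. The remaining parents have few copies: CFL1 (cofilin, which severs actin filaments) changed by -0.09, with a sign that turned under quantile normalization and without mitochondrial transcripts, TPT1 (translationally controlled tumour protein) rose by 0.44 (0.12 and not past with a common median), and NACA (a ribosome-bound chaperone subunit) changed by 0.36 without passing. Of their tested copies 3 of 6, none of 4 and none of 3 fell. CFL1P4 averaged 290 ± 85.1 TPM in binding cells, against 464 ± 35.7 TPM in non-binding cells and fell by 0.72. TPT1P4 and NACAP1 changed by -0.85 and -0.58 with limma adjusted p = 0.0672 and 0.0844.

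**Figure D3:**
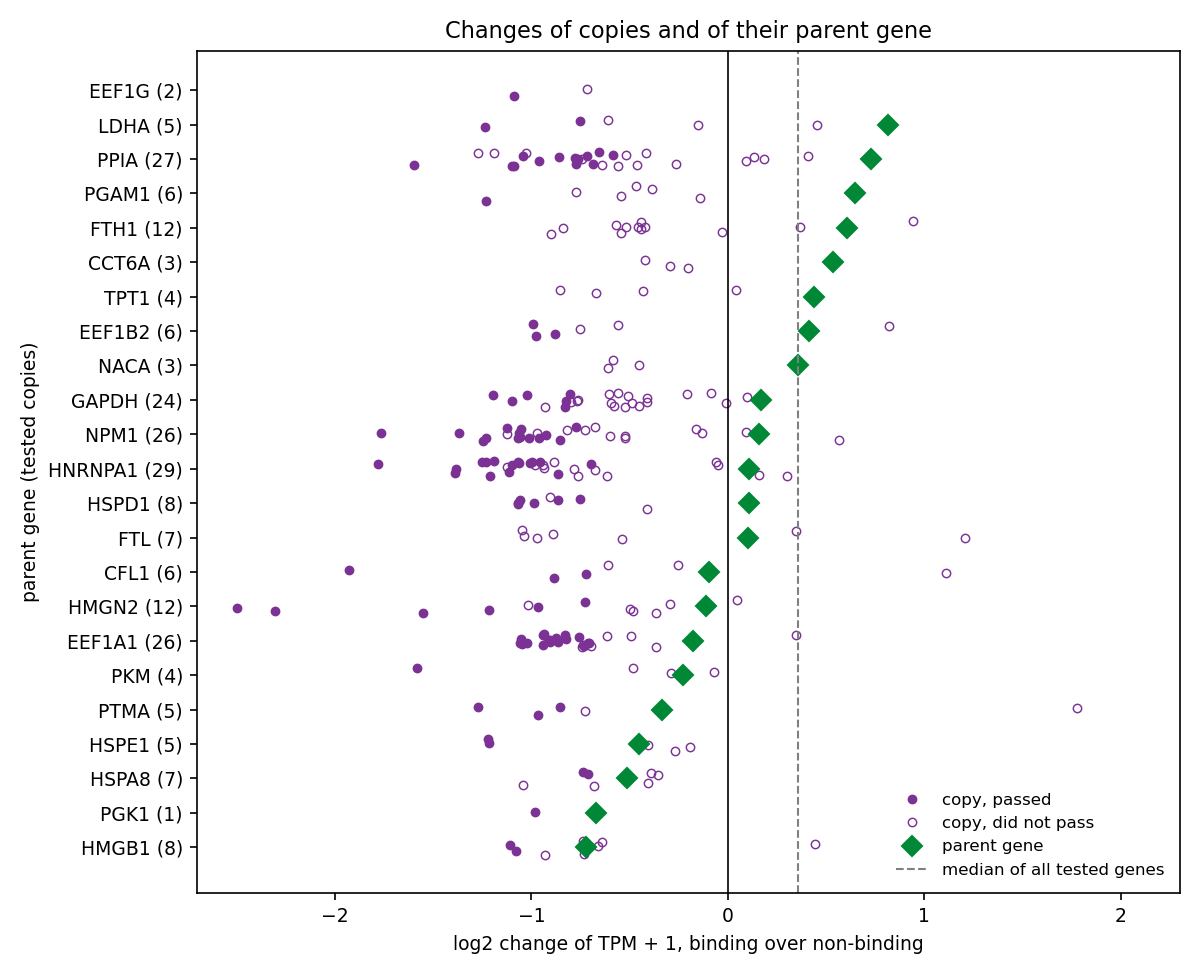
Log2 change of TPM + 1, binding over non-binding, for each tested copy (circles, filled where it passed) and its parent (diamonds), with families ordered by the parent's change and EEF1G, whose parent was not tested, on top. Copies lie mostly left of 0 in all 23 families, while parents run from -0.72 to 0.81.

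Copies fell in families whose parent rose, fell or did not pass. Of 27 tested parents 7 rose (ENO1, PGAM1, LDHA, LDHB, PPIA, FTH1 and TPT1), 3 fell (PGK1, HSPE1 and HMGB1) and 17 did not pass. These counts are 25.9% higher and 11.1% lower, against 19.6% and 7.12% of all tested genes. With a common median 2 parents rose (ENO1 and LDHA) and 8 fell (PGK1, HSPE1, HMGB1, HMGN2, HSP90AA1, HSP90AB1, PTMA and TUBA1B). Under quantile normalization 7 parents rose and 3 fell. Over all 15574 tested genes, 962 rose (6.18%) and 1890 fell with a common median, and 1197 rose (7.69%) and 1246 fell under quantile normalization. Among copies of parents that rose, 16 of 54 tested fell. Among copies of parents that fell, 5 of 14 did, and among copies of tested parents that did not pass, 78 of 166. The change of the copy was below that of its parent for 213 of 234 copies, with a median difference of -0.89. The median change of copies was negative in 23 of 23 families with a tested copy and below the parent's change in 21 of 22, the exception being HSPE1 (-0.40 for copies, -0.45 for the parent).

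As a percentage of the parent's TPM, EEF1A1P5 stood at 299, 477 and 465% in binding libraries, against 624, 694 and 653% in non-binding libraries. PPIAP19 averaged 274 ± 99.6% of PPIA in binding and 716 ± 121% in non-binding cells. PPIAP22, whose TPM did not differ, averaged 58.4 ± 3.44% of PPIA in binding and 91.4 ± 8.64% in non-binding cells. Over the 234 copies, this ratio was lower without overlap in binding libraries for 125, higher without overlap for 0, and overlapping for 109. The ratio also falls where only the parent rises, and it has no counterpart over all tested genes. In TPM itself, 121 of the 236 tested copies were lower without overlap in binding libraries and 1 was higher. Over all 15574 tested genes, 13.6% were lower without overlap and 38.6% higher. With 3 against 3 libraries an exact two-sided permutation test cannot give a p below 0.1, so no single ratio can pass. Leaving out the EEF1G family, in 8 copies the level was above the parent's in all 6 libraries: HMGN2P22, PTMAP2, PPIAP9, EEF1A1P5, PPIAP40, FTH1P16, PPIAP19 and HMGB1P6.

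The copies' share of copies plus parent gives the same picture by family. It was lower without overlap in binding libraries in 18 of 22 families. This share also falls where only the parent rises, and it has no counterpart over all tested genes. For HNRNPA1 it was 70.5 ± 6.43% in binding and 84.7 ± 1.44% in non-binding cells, for NPM1 60.1 ± 5.80% in binding and 78.1 ± 2.89% in non-binding cells, and for EEF1B2 23.4 ± 5.68% in binding and 42.8 ± 2.43% in non-binding cells (SD, n = 3 each). For GAPDH, where the parent holds most of the signal, it was 10.1 ± 1.84% in binding and 16.2 ± 1.71% in non-binding cells. In HSPA8, TPT1, PKM and PGK1 the groups overlapped. The summed TPM of copies plus parent differed between families. It was 3008 ± 254 in binding and 5283 ± 243 in non-binding cells for HNRNPA1, and 3422 ± 130 and 5601 ± 636 for NPM1. For EEF1B2 it was 769 ± 122 in binding and 767 ± 25.5 in non-binding cells, and for GAPDH 6798 ± 56.9 and 6528 ± 753.

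**Figure D4:**
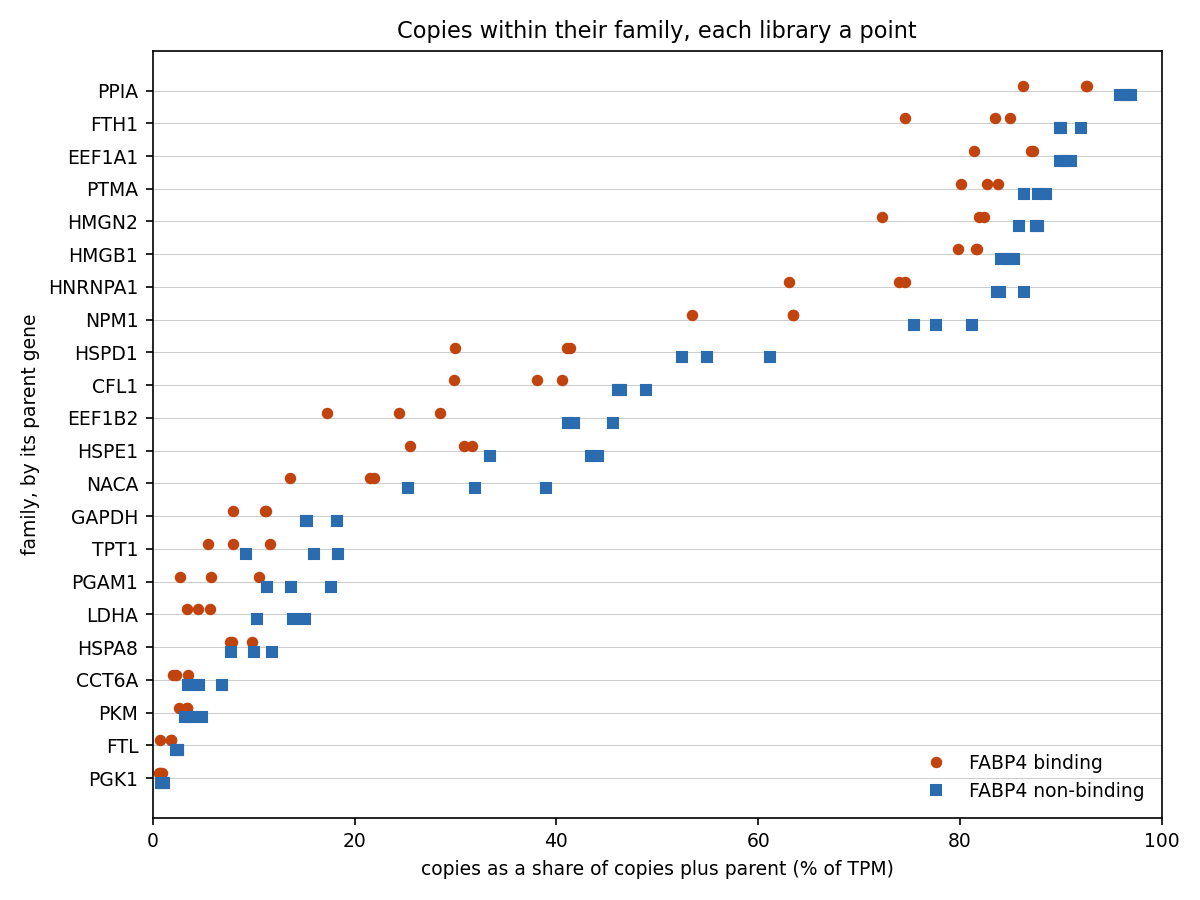
Copies as a share of copies plus parent (% of TPM) in 22 families, each point a library, FABP4 binding above and non-binding below within each row. Binding points lie left of all non-binding points in 18 families and overlap with them in HSPA8, TPT1, PKM and PGK1.

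Falls were counted most often among abundant copies. Of 15 copies with a mean of at least 1000 TPM 13 fell, of 30 between 100 and 1000 TPM 27 did, of 82 between 10 and 100 TPM 46 did, and of 109 below 10 TPM 14 did. The median changes of these tiers were -0.87, -0.94, -0.85 and -0.56, so the size of the change differed less than the count. On the scale of log2(TPM + 1), changes of low genes come out too small. All tested genes were not counted by level, so the tiers do not show a trait of abundant copies. Likeness to the parent gave a similar pattern. Identity over the aligned part had a median of 92.3% and ran from 69.7 to 99.7%. Of 14 copies at 98% identity or above 12 fell, of 43 between 95 and 98% 18 did, of 106 between 90 and 95% 51 did, of 40 between 85 and 90% 14 did, and of 33 below 85% 5 did. Their median changes were -0.92, -0.82, -0.77, -0.65 and -0.61.

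Identity and level go together, so their parts in these counts were not separated. Over the 236 copies, which share libraries and parents, Spearman's rho was 0.49 between identity and mean TPM, -0.15 between identity and change, and -0.40 between mean TPM and change. Of the 64 copies with no 50-base stretch in common with a parent transcript, 15 fell and 49 did not pass, with a median change of -0.66. Of the 172 copies with such a stretch, 85 fell, with a median change of -0.79. Of 45 copies that lie inside another gene on the same strand 18 fell (40.0%), and of the other 191 copies 82 did (42.9%).

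**Figure D5:**
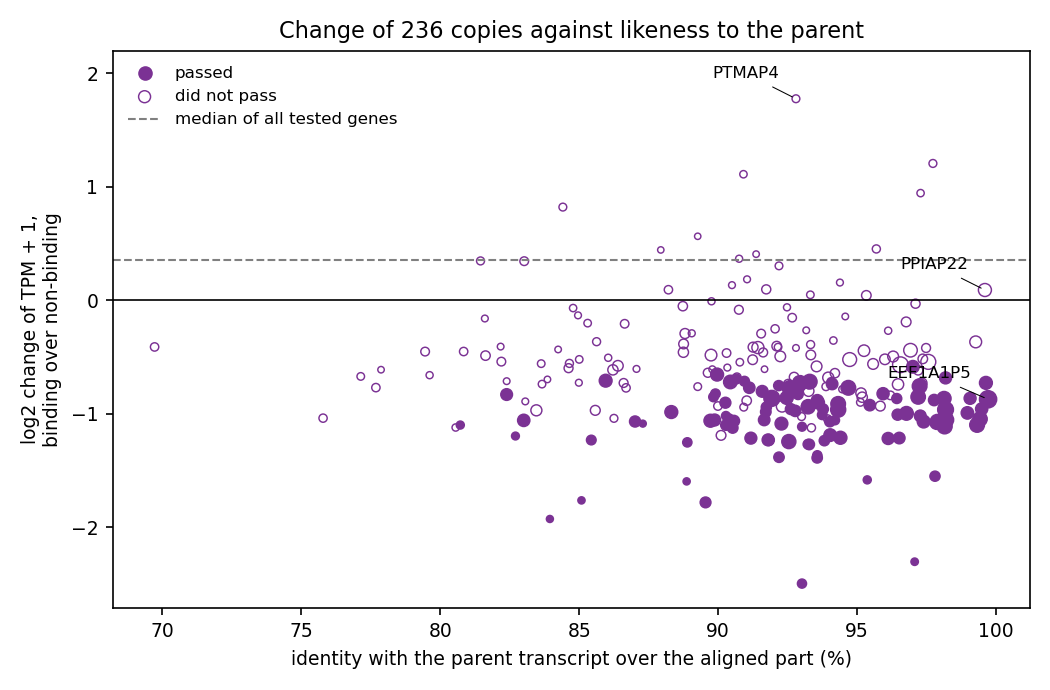
Log2 change of TPM + 1, binding over non-binding, of the 236 tested copies against identity with the parent transcript (%), filled where the copy passed, with larger circles for higher mean TPM. Most copies lie below 0 at every identity, and PPIAP22 at 99.6% identity and PTMAP4 at 92.8% lie above 0.

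PTMAP4 had the largest positive change among tested copies and was chosen after its values were seen. It had 7.17, 1.72 and 4.99 TPM in binding libraries, against 2.31, 0 and 0 TPM in non-binding libraries, a change of 1.78 ± 0.58 that did not pass (limma adjusted p = 0.054). The groups overlap at this low level. It lies on chromosome 12 inside A2MP1 and shares no 50-base window with PTMA. At the edge of the filter, NACAP2 with a mean of 1.60 TPM was not tested and NPM1P18 with a mean of 0.715 TPM was.

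Pseudogenes of other genes were lower too. Of 344 tested ribosomal protein pseudogenes 99 fell (28.8%) and 5 rose, with a median change of -0.65. Of 1319 tested processed pseudogenes outside both sets, 325 fell (24.6%) and 20 rose, with a median of -0.60. The copies described here stood at 42.4% and -0.75, and the difference between these sets was not tested. All processed pseudogenes together took 15.4 ± 3.37% of TPM in binding cells, against 25.8 ± 1.71% in non-binding cells. Protein-coding genes took 80.5 ± 3.06% in binding and 71.5 ± 1.63% in non-binding cells, and 2824 of 12050 tested rose while 542 fell. Protein-coding genes of the mitochondrial genome are part of this total, and nuclear genes alone were not summed.

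Other differences between the libraries moved with the copies. Transcripts of the mitochondrial genome took 10.5 ± 0.67% of TPM in binding cells, against 3.14 ± 0.21% in non-binding cells; without them and with TPM rescaled, 93 of 243 tested copies fell. The number of genes at 1 TPM or above was 15810 to 15945 in binding and 15300 to 15458 in non-binding libraries. Markers of the line (VIM, CD44, CAV1, AXL, SPARC) summed to 1556 to 1787 TPM in binding cells, against 1189 to 1216 TPM in non-binding libraries, and 3 of 5 rose. The 6 epidermal markers all fell, with sums of 1045 to 1681 TPM in binding cells, against 2530 to 3578 TPM in non-binding libraries, and their part in the result was not tested. Of the epithelial list CDH1 fell by 0.77 (limma adjusted p = 0.0387), with 2.89, 4.15 and 3.26 TPM in binding libraries, against 6.21, 6.02 and 7.29 TPM in non-binding libraries. EPCAM, the other tested gene of that list, went the other way by 0.47 without passing (limma adjusted p = 0.132). It had 8.27, 7.33 and 7.76 TPM in binding libraries, against 4.44, 4.80 and 7.01 TPM in non-binding libraries. The 3 fibroblast markers and 2 of the 4 leukocyte markers were tested and did not pass; the other leukocyte markers and all endothelial and adipocyte markers were too low to be tested. ESR1 and ADIPOQ were at 0 in every library. In bulk RNA, fewer cells of a kind and less RNA per cell cannot be told apart.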

How the data were processed

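RNA of 6 libraries (3 FABP4 binding, 3 FABP4 non-binding) was measured by the submitters. The authors deposited TPM, as the values show: every library sums to 1000000 over 58051 genes. Per the submitters' processing notes, hg38 was used. How reads were aligned, quantified and divided between matching genes, and with which annotation, is not stated in the sources used here. Depth cannot be read from TPM, so no interval, floor or count model was used, and an exact 0 may be a failed estimate.

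Members were found by gene name, and members and lists were chosen with earlier results of these data known. The 15574 genes that reached 1 TPM in 3 or more libraries were tested on log2(TPM + 1) by limma 3.58.1 in R 4.3.3 (intensity trend, group as the only term, Benjamini-Hochberg at 0.05), and the code was tested on simulated data. Copy to parent ratios used exact two-sided permutation tests (scipy 1.17.1). Gene types, coordinates and transcripts came from GENCODE release 29 (GRCh38), which may not be the submitters' annotation. Identity to the parent came from blastn 2.17.0 (e-value 1e-05), and exact shared windows of 50 bases were counted; the 90-base stretch printed is that with the most differences among the copies shown. The parent of CCT6 copies was taken as CCT6A and TUBA1B was listed for the TUBA1 stem.

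Named were all parents, the 12 tested copies with the highest mean TPM, the highest tested copy of each family and the 10 called copies with the largest change in each direction; HMGB1P5, EEF1A1P6, PPIAP9 and PPIAP40 were added after their values were seen. Alternatives were a pseudocount of 0.1, no filter, a filter of 5 TPM, a common median, quantile normalization, no mitochondrial transcripts, no intensity trend, a replicate block and leaving out each library.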

Additional observations from a re-analysis of the deposited data

How the results depend on the processing

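The number of copies that fell (100) stayed within 1.5 times under 10 alternatives: 97 with a pseudocount of 0.1, 103 with a filter of 5 TPM, 116 with a common median, 94 with quantile normalization, 93 without mitochondrial transcripts, 69 without the intensity trend, 108 with the replicate block, and 76 to 81 with each binding library left out. It was 51 with no filter, where more genes were tested, and over all libraries left out it ranged from 0 to 81. The number of copies that rose (0, with 2 at an unadjusted p below 0.05 in limma) was 1 without mitochondrial transcripts, with the replicate block and with 2 of the libraries left out, a range of 0 to 1. The copy was PTMAP4 in each case. Beside the 108 copies that fell with the replicate block, deviations of same-numbered libraries from their group means had correlations of 0.0349, -0.0167 and 0.0284. With 3 libraries per group, these values cannot show whether same-numbered libraries were grown or sorted together.

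Of all tested genes (1109 lower, 3047 higher), 500 fell and 1373 rose with no filter, 1890 and 962 with a common median, 1246 and 1197 with quantile normalization, and 567 and 1992 without the intensity trend. With a library left out, 6 to 888 fell and 58 to 1975 rose. Every library left out loses 1 of 3 samples of a group, and the cause of the difference between libraries was not tested. EEF1A1P5 ranks first in every library, so quantile normalization gives it a change of 0 by construction.

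Signs turned for 9 named genes, none of which passed as reported. With a common median GAPDH changed by -0.15, FTL by -0.22, HSPD1 by -0.21, NPM1 by -0.16 and HNRNPA1 by -0.21. Without mitochondrial transcripts HMGN2 changed by 0.000763 and CFL1 by 0.0185, and with quantile normalization HSP90AB1 by 0.0550 and CFL1 by 0.0689. With each library left out, the change ranged from -0.00248 to 0.16 for FTL, from -0.0468 to 0.19 for HSPD1 and from -0.78 to 0.0769 for PGAM1P6, with the turned sign in each case without binding library 1. The cause was not tested. Depth is unknown, so what it limits cannot be stated.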
